A study of Mus musculus with 20 samples.

Results

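Long intergenic non-coding RNAs (lincRNAs) are transcripts longer than small RNAs that come from genes lying between protein-coding genes and are not translated into known proteins. The set described here holds 207 genes, chosen by their counts over all groups, Zcchc8 KO included: every gene with the GENCODE M21 type lincRNA that had a mean of at least 20 counts over the 20 libraries of the gene table. They were taken from 5617 lincRNA genes, of which 2217 had any count, in a table of 55471 genes. The Snhg genes, Gas5, Neat1, Malat1 and Terc were left out by name, which removed 5 genes above that level (Snhg6, Snhg12, Snhg20, Malat1 and Neat1).

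RNA polymerase II makes lincRNAs much as it makes mRNAs, but many of them are poorly spliced and are degraded soon after they are made. ZCCHC8 holds together the NEXT complex (nuclear exosome targeting), in which RBM7 binds RNA and the helicase MTR4 (gene Mtrex) feeds it to the RNA exosome, a nuclease. NEXT is best known for removing short, unspliced, non-polyadenylated RNAs such as promoter upstream transcripts and enhancer RNAs, while a related complex, PAXT, deals with RNAs that carry a poly(A) tail.

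The libraries were total RNA of SIMS, an immortalised mouse salivary gland cell line, and asked which transcripts change when Zcchc8 is knocked out. They formed 5 groups of 4: wild type, a Btbd7 knockout (Btbd7 KO, the study's negative control) and 3 Zcchc8 knockout lines named clone 1, clone 2 and clone 3. Both genes were edited with CRISPR/Cas9, and all groups were grown in DMEM with 10% fetal bovine serum. Each knockout line is a single line, and the labels do not say whether its 4 libraries came from separate cultures, so p-values measure the spread between these libraries, which may be technical.

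Libraries held between 6833258 and 17771804 gene counts. The libraries of clone 1 were the shallowest group, at 6833258 to 7683444, so a value of 1 CPM (counts scaled to the library's size and TMM factor) rests on few reads there. Zcchc8 RNA itself changed by a log2 fold change of -0.11 in clone 1, -1.48 in clone 2 and -0.26 in clone 3, and Btbd7 RNA by -1.03 in the Btbd7 KO. The site of each edit is not given in the sources used here, so these levels do not by themselves check the labels. Wild-type replicate 1 stood apart: it had a count in 14245 genes, against up to 18791 in the other wild-type libraries. It also held no count for 31 of the lincRNAs, whereas the other 3 wild-type libraries together missed 5. Of 12 markers of salivary epithelium, 11 had a median above 1 CPM (summed level 4030 to 5810 CPM in wild type and 3550 to 4640 CPM in the Zcchc8 KO libraries), and Krt5 was at a median of 0. The summed markers of endothelium stayed at or below 1.15 CPM in every library and those of smooth muscle or myoepithelium at or below 1.45 CPM. Of 4 acinar markers, Amy1, Prol1 and Smgc had a median of 0 and Bhlha15 one of 1.49 CPM. Fibroblast markers summed to 9.3 to 14.9 CPM in wild type and 9.88 to 28.1 CPM in Zcchc8 KO, nearly all of it Col1a1, with Lum at 0 in every library. Leukocyte markers summed to 4.52 to 6.19 CPM in wild type and 4.09 to 13.4 CPM in Zcchc8 KO, nearly all of it Cd68. The part of these markers in the results was not tested.

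The level that chose the genes included the Zcchc8 KO libraries, so a gene that is low in wild type could enter only by being high in a knockout. Of the 207 lincRNAs, 168 had a mean of at least 20 counts in wild type alone and 39 did not. All 207 passed the filter on low counts. The genes just inside the limit were F630042J09Rik (mean 20.4 counts, log2 fold change 0.49), Gm15704 (mean 20.4 counts, 0.45) and F420014N23Rik (mean 20.9 counts, 0.35). Those just outside were 1810044D09Rik (mean 19.9 counts, log2 fold change 4.45), 5730414N17Rik (mean 19.9 counts, 3.27) and Gm37933 (mean 19.6 counts, 1.88). Another 14 lincRNA genes reach a mean of 20 counts in wild type but not over all libraries, and are not among the 207.

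Many lincRNAs rose in the Zcchc8 KO clones and few fell. Taking the mean of the 3 clones minus wild type, 106 of 207 were higher at an adjusted p under 0.05 and 10 were lower, while 16.2% of all 15297 genes tested were higher and 19.9% were lower. The median log2 fold change of the lincRNAs was 0.55, beside -0.01 over all genes. Among the 106, 74 rose by more than 1 on the log2 scale, 39 by more than 2 and 20 by more than 3; none of the 10 fell by more than 1. Counts were also summed per line, so that 3 clones were set against the 2 control lines (wild type and Btbd7 KO). In this setting 69 lincRNAs were higher, of which 68 are among the 106, and 0 were lower. Of all 17346 genes tested there, 5.34% were higher and 0.951% lower. Scaling by library totals in place of TMM factors gave 111 higher and 6 lower, and turned the split over all genes from 2474 higher and 3046 lower to 3229 and 2005.

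The split by wild-type level bears on that count. Of the 168 lincRNAs with a wild-type mean of at least 20 counts, 69 were higher (41.1%) and 10 lower (5.95%), with a median of 0.41. These 168 also passed the level over all libraries, which can favour a rise. Chosen by the wild-type mean alone, 69 of 182 lincRNAs were higher. All tested genes at that wild-type level had 12.3% higher and 24.0% lower, with a median of -0.05. The 39 below that level were nearly all higher (37 of 39, median 2.99), which their choice would favour, and 33.2% of all tested genes at such wild-type levels were higher.

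Taken one by one, the clones each had about as many calls; all 3 comparisons share the wild-type libraries. Clone 1 had 99 lincRNAs higher and 10 lower, with 16.7% and 19.1% of all genes. Clone 2 had 92 higher and 10 lower (all genes 16.1% and 16.2%), and clone 3 had 97 higher and 8 lower (all genes 14% and 15.3%). For 78 lincRNAs the rise passed the test for the mean and in each clone, beside 7.64% of all genes; for 1 lincRNA, Pvt1, a fall did so, beside 5.82% of all genes. In 63 lincRNAs all 12 Zcchc8 KO libraries lay above all 4 wild-type libraries, as 6.01% of all genes did. In 60 lincRNAs they lay above all 8 wild-type and Btbd7 KO libraries, as 4.62% of all genes did. In none did all 12 lie below the 4 wild-type libraries, beside 4.12% of all genes. The counts of higher or wholly separate lincRNAs include some of the 39 with a wild-type mean under 20 counts. Their choice favours a rise and such gaps, and the share over all genes was not chosen this way. These counts were not split by wild-type level.

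Btbd7 KO showed a different pattern. Minus wild type, 7 lincRNAs were higher and 13 lower, beside 7.73% and 8.0% of all genes, and the median was -0.13. Of the 106 lincRNAs that rose in Zcchc8 KO, 3 were also higher and 4 lower in Btbd7 KO. When the clones were compared with Btbd7 KO in place of wild type, 114 lincRNAs were higher and 7 lower (all genes 18.8% and 22.2%). Of the 106, 93 were among those higher. The choice of genes by a level that includes Zcchc8 KO would favour these rises as well.

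**Figure D1:**
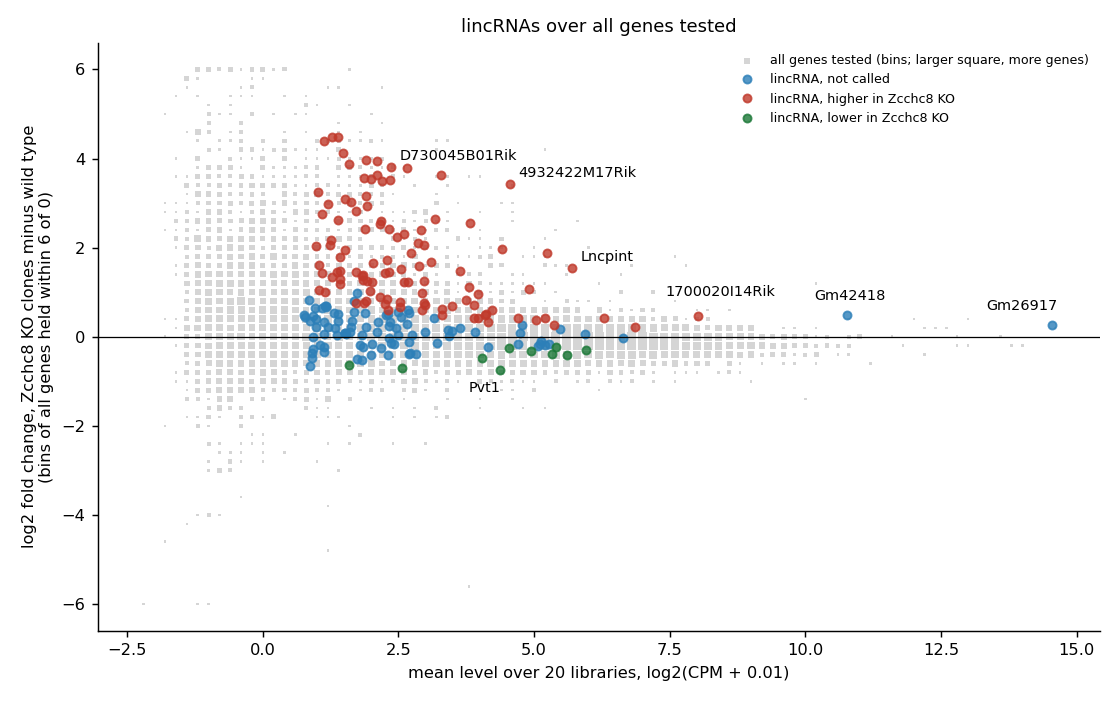
Each coloured point is a lincRNA, with its mean level over the 20 libraries on the x axis as log2(CPM + 0.01) and its log2 fold change, Zcchc8 KO clones minus wild type, on the y axis. Grey squares bin all 15297 genes tested. The 106 lincRNAs that were higher (red) reach log2 fold changes above 4 at low levels, and the 10 that were lower (green) stay above -1.

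The largest rises were found by a fixed rule, among lincRNAs called in each clone with a mean of at least 50 counts. 4932422M17Rik, a single-exon gene of 2639 bases on chromosome 5 (GRCm38 chr5:123138931-123141569, plus strand), had the smallest adjusted p among these. Its wild-type libraries held 2.67, 3.18, 3.07 and 4.52 CPM and its Btbd7 KO libraries 3.26, 3.12, 3.85 and 2.62 CPM. Clone 1 held 41.8, 37.1, 46.6 and 42.2 CPM, clone 2 held 25.8, 27.4, 34.1 and 27.4 CPM, and clone 3 held 38.9, 40.7, 36.8 and 44.6 CPM. The lowest Zcchc8 KO library thus lay far above the highest control, and clone 2 lay below the other clones. The log2 fold change was 3.43 (SE 0.13, adjusted p = 6.54e-16), and 3.63, 3.09 and 3.57 in the 3 clones. 4932422M17Rik lies whole within AI480526, a 6-exon lincRNA on the other strand that starts 527 bases from Setd1b, a histone methyltransferase gene. AI480526 rose as well, from 9.82 to 16.1 CPM in wild type to 39.4 to 64.6 CPM in Zcchc8 KO (log2 fold change 1.88, SE 0.1, adjusted p = 3.05e-13). Because the counting's strand setting is not given in the sources used here, reads of this pair may not be fully separated. The same holds for 5 pairs of lincRNAs in all that overlap on opposite strands.

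D730045B01Rik had the largest log2 fold change under the rule, 3.82 (SE 0.4, adjusted p = 4.71e-08). Its 4 wild-type libraries held 0, 0.926, 0.972 and 0.352 CPM, and its Btbd7 KO libraries 0.784, 0.664, 0 and 0.845 CPM. In clone 1 it reached 9.64, 11.2, 10.4 and 11.6 CPM, in clone 2 7.4, 7.55, 5.7 and 6.42 CPM, and in clone 3 6.55, 8.16, 7.39 and 6.54 CPM. No control library reached 1 CPM and every Zcchc8 KO library passed 5. It overlaps the coding gene Gm42906. Gm17767, a 4-exon gene, rose by 3.79 (SE 0.29, adjusted p = 1.75e-10). It held 0.523 to 0.938 CPM in wild type, 0.248 to 1.45 CPM in Btbd7 KO and 6.67 to 13.7 CPM in Zcchc8 KO, with no overlap. Gm26583, past the end of the RNA polymerase III factor gene Brf1, rose by 3.52 (SE 0.32) from 0.195 to 1.11 CPM in wild type to 6.25 to 10.6 CPM. D730045B01Rik, Gm17767 and Gm26583 had a wild-type mean under 20 counts. They entered the set through their Zcchc8 KO level, a choice that favours a rise and a lack of overlap. The remaining 5 isolated or overlapping genes of this rule rose by 2.30 to 2.64 and likewise did not overlap their controls: 1700096K18Rik (2.64), Gm39556 (2.55), Gm36026 (2.42), A530053M12Rik (2.40) and Gm13056 (2.30). Gm36026 lies over Krt8, an abundant keratin gene of these cells (468 to 951 CPM), which fell by 0.38 on the log2 scale (adjusted p = 0.00308).

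Below the level limit of that rule, 4 further genes outside the divergent class were picked for large rises after their values were seen. 4930471E19Rik rose by 4.48 (SE 0.53), 4930517E14Rik by 4.40 (SE 0.54), Gm12951 by 3.97 (SE 0.42) and AC132957.1 by 3.95 (SE 0.39). Their wild-type libraries held at most 0.463, 0.347, 0.673 and 0.822 CPM, and their Zcchc8 KO libraries at least 1.53, 2.56, 3.99 and 5.73 CPM. All 4 had a wild-type mean under 20 counts and entered the set through their Zcchc8 KO level, which favours such gaps. 4930471E19Rik was also higher in Btbd7 KO (2.35, adjusted p = 0.00924), and Kazald1, which AC132957.1 overlaps, rose by 2.06 (adjusted p = 0.00645). Single wild-type libraries weigh on such low levels. Without wild-type replicate 2, the log2 fold change was 6.09 for 4930471E19Rik and 5.18 for 4930517E14Rik. Without wild-type replicate 1 these were 4.11 and 4.02. Over all left-out libraries they ranged from 4.08 to 6.09 and from 4.02 to 5.18.

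**Figure D2:**
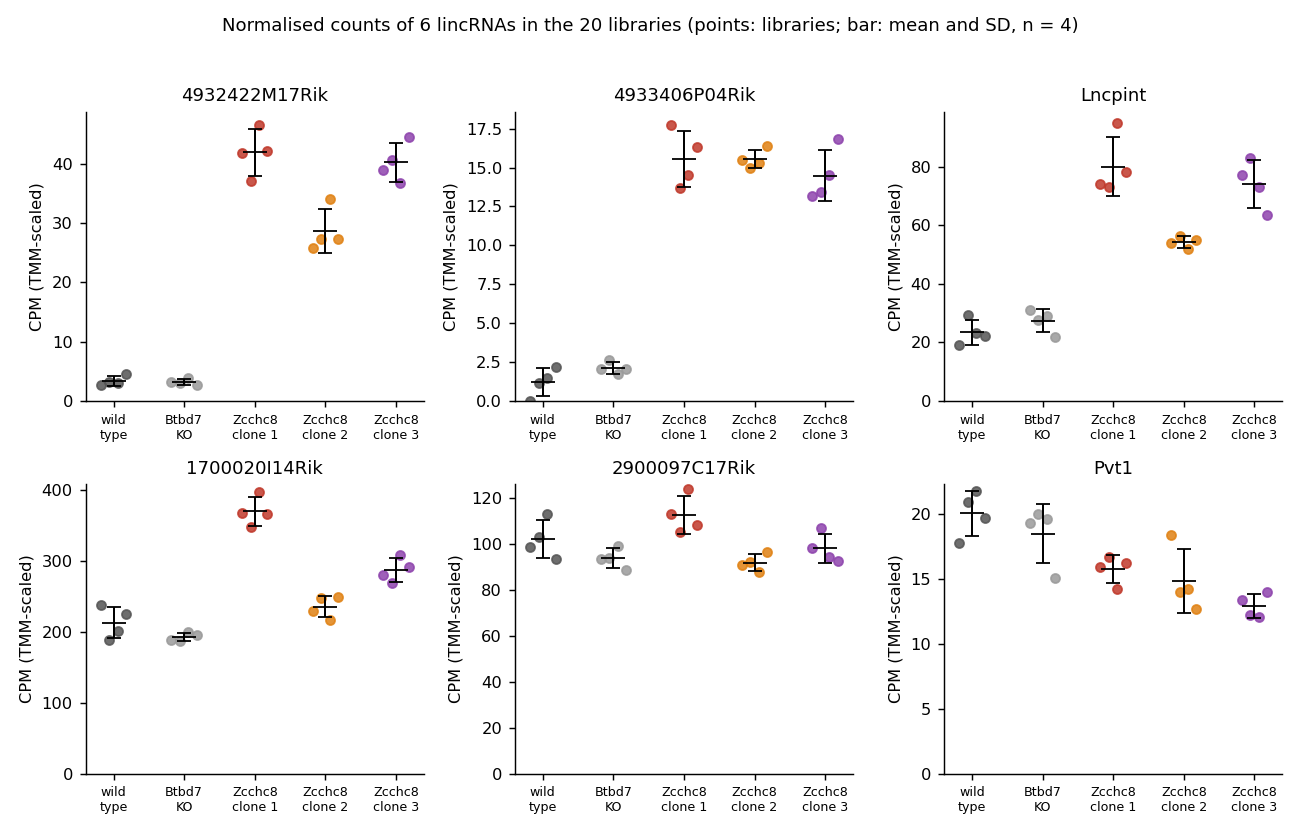
TMM-scaled CPM of 6 lincRNAs (y axis, from 0) in the 5 groups of 4 libraries (x axis); points are libraries, the bar is the mean and SD. In the upper row every Zcchc8 KO library lies above every control library. Of these genes 4933406P04Rik entered the set through its Zcchc8 KO level. In the lower row 1700020I14Rik differs between clones, 2900097C17Rik overlaps in all groups and Pvt1 is lower in the clones.

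Position relative to coding genes marked out groups of lincRNAs. A gene was called divergent when it starts within 5 kb of a coding gene on the opposite strand and points away from it, overlapping when it shares bases with a coding gene, downstream when it starts within 10 kb past the end of a coding gene on its own strand, and isolated otherwise. Of 54 divergent lincRNAs 41 were higher and 0 lower, with a median log2 fold change of 1.29. Of 28 overlapping ones 15 were higher and 3 lower (median 0.67), of 95 isolated ones 40 were higher and 6 lower (median 0.41), and of 30 downstream ones 10 were higher and 1 lower (median 0.31). Among all genes tested 16.2% were higher and 19.9% lower. Every class holds genes that entered the set through their Zcchc8 KO level, which favours a rise. Restricted to a wild-type mean of at least 20 counts, 26 of 38 divergent, 10 of 23 overlapping, 27 of 81 isolated and 6 of 26 downstream lincRNAs were higher. Their medians were 0.88, 0.5, 0.26 and 0.22. All genes tested at that level had 12.3% higher and a median of -0.05. In Btbd7 KO the medians of the whole classes, in the same order, were -0.09, -0.19, -0.11 and -0.17.

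Divergent lincRNAs are read from the other side of an mRNA promoter. Within 250 bases of the coding gene's start 25 of 32 were higher. Farther away, 10 of 12 were higher at up to 1000 bases, and 6 of 10 beyond that, at up to 5000 bases. With a wild-type mean of at least 20 counts these were 14 of 20, 7 of 9 and 5 of 9. The coding partners did not share this pattern. Of 52 tested partners 6 were higher, 16 lower and 30 neither, with a median log2 fold change of -0.07. Over all genes tested 16.2% were higher and 19.9% lower. With a wild-type mean of at least 20 counts these shares were 12.3% and 24.0%, with a median of -0.05. Whether the partners differ from other genes was not tested. Among the 39 divergent lincRNAs that rose and had a tested partner, that partner was higher in 6, lower in 11 and neither in 22.

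4933406P04Rik was the only divergent gene under the rule for the largest rises. It starts 175 bases from Bclaf1, which codes for a BCL2-associated transcription and splicing factor, and is a single exon of 1789 bases at chr10:20310506-20312294 on the minus strand. Wild-type libraries held 0, 1.16, 1.5 and 2.17 CPM and Btbd7 KO libraries 2.05, 2.65, 1.74 and 2.03 CPM. Clone 1 held 17.7, 13.7, 14.5 and 16.3 CPM, clone 2 held 15.5, 15, 15.3 and 16.4 CPM, and clone 3 held 13.2, 13.4, 14.5 and 16.8 CPM. The clones lay together and apart from both controls. 4933406P04Rik had a wild-type mean under 20 counts and entered the set through its Zcchc8 KO level, which favours such a gap. Its log2 fold change was 3.63 (SE 0.31, adjusted p = 2.1e-09), and that of Bclaf1 was -0.16 (adjusted p = 0.00842).

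Other divergent lincRNAs with large rises were chosen after their values were seen. Gm48079, beside Esyt2, an endoplasmic reticulum tethering protein gene, rose by 4.48 (SE 0.56) and 4930532G15Rik, beside the tRNA synthetase gene Eprs, by 4.12 (SE 0.48). 4930429F24Rik beside Tmem30a rose by 3.62, A330035P11Rik beside Tm9sf2 by 3.56, Gm11335 beside the histone gene Hist1h4h by 3.54 and 4632411P08Rik beside Lmbr1 by 3.49. All 6 had Zcchc8 KO libraries wholly above the wild-type libraries, whose highest values ran from 0.293 CPM (Gm48079) to 1.30 CPM (4930429F24Rik). All 6 also had a wild-type mean under 20 counts and entered the set through their Zcchc8 KO level, which favours such gaps. Of their partners, Eprs (-0.33, adjusted p = 1.36e-05), Esyt2 (-0.25, adjusted p = 0.000457) and Tm9sf2 (-0.16, adjusted p = 0.00628) were lower, Lmbr1 was higher (0.40, adjusted p = 0.0114), and Tmem30a and Hist1h4h passed in neither direction. 4632411P08Rik was also higher in Btbd7 KO (1.17, adjusted p = 0.0353). Leaving out wild-type replicate 3 gave 4.87 for 4930532G15Rik, leaving out replicate 1 gave 4.5 for 4930429F24Rik, and leaving out replicate 4 gave 4.39 for Gm11335. Over all left-out libraries these genes ranged in turn from 3.75 to 4.87, 3.21 to 4.5 and 3.15 to 4.39.

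Promoter windows are shown for 3 divergent lincRNAs that rose in each clone, have a mean of at least 50 counts and start within 250 bases of their partner, because the window also holds the start of the coding partner. Each window runs from 250 bases before to 50 bases after the RefSeq start of the lincRNA on GRCm38.p6, plus strand, 5′ to 3′; capitals mark the bases after the start. C030037D09Rik (chr11:88718393-88718692) faces Msi2, an RNA-binding protein gene, at 132 bases. 4933433G15Rik (chr9:75409934-75410233) faces the kinase gene Mapk6 at 179 bases, and 2010320M18Rik (chr8:70776612-70776911) faces Pik3r2, a phosphoinositide 3-kinase regulatory subunit gene, at 102 bases.
C030037D09Rik: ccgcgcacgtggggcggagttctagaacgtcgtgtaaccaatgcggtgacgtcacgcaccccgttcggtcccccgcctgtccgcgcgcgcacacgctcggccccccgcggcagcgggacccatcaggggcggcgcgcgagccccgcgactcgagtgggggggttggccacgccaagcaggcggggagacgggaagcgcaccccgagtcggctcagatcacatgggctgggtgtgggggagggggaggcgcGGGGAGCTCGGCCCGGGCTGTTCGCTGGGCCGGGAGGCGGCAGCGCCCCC
4933433G15Rik: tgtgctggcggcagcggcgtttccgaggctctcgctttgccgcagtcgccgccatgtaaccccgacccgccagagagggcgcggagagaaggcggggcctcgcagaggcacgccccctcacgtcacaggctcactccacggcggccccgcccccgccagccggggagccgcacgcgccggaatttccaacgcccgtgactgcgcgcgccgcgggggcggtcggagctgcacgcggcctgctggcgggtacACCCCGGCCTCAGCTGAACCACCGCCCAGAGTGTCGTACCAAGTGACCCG
2010320M18Rik: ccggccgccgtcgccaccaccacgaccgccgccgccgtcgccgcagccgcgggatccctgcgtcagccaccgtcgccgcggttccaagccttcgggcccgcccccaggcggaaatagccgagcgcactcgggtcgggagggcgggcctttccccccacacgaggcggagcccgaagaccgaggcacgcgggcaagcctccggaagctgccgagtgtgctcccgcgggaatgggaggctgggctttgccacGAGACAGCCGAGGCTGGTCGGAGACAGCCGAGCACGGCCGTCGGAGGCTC
The windows were 75.7%, 73.7% and 74.7% G or C and held 42, 41 and 43 CG dinucleotides, and none held TATAAA.

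C030037D09Rik held 1.1 to 4.75 CPM in wild type, 2.23 to 3.92 CPM in Btbd7 KO and 6.9 to 16.3 CPM in Zcchc8 KO, with no overlap (log2 fold change 1.87, SE 0.26, adjusted p = 4.15e-06). 4933433G15Rik held 1.35 to 3.84 CPM in wild type, 0.929 to 1.60 CPM in Btbd7 KO and 3.95 to 9.26 CPM in Zcchc8 KO (1.42, SE 0.24, adjusted p = 4.34e-05). 2010320M18Rik held 0.650 to 5.38 CPM in wild type, 2.36 to 5.24 CPM in Btbd7 KO and 5.8 to 11.1 CPM in Zcchc8 KO (1.23, SE 0.31, adjusted p = 0.00254). For these genes the lowest Zcchc8 KO library lay only a little above the highest wild-type library. Their partners went different ways: Msi2 had a log2 fold change of 0.15 (adjusted p = 0.173), Mapk6 fell by 0.34 (adjusted p = 5.81e-05) and Pik3r2 rose by 0.35 (adjusted p = 0.00527).

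RefSeq held a promoter window for 100 of the 207 lincRNAs, and in 75 it lay within 200 bases of the GENCODE start. The 27 divergent ones among these had a median of 69.7% G or C and 34 CG dinucleotides, the 36 isolated ones 52.0% and 7, and all 32851 RefSeq windows 52.7% and 7. The letters TATAAA, searched on both strands, were in 3.7% of the divergent windows, 11.1% of the isolated windows and 13.6% of all windows. A match or its absence describes these letters only.

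**Figure D3:**
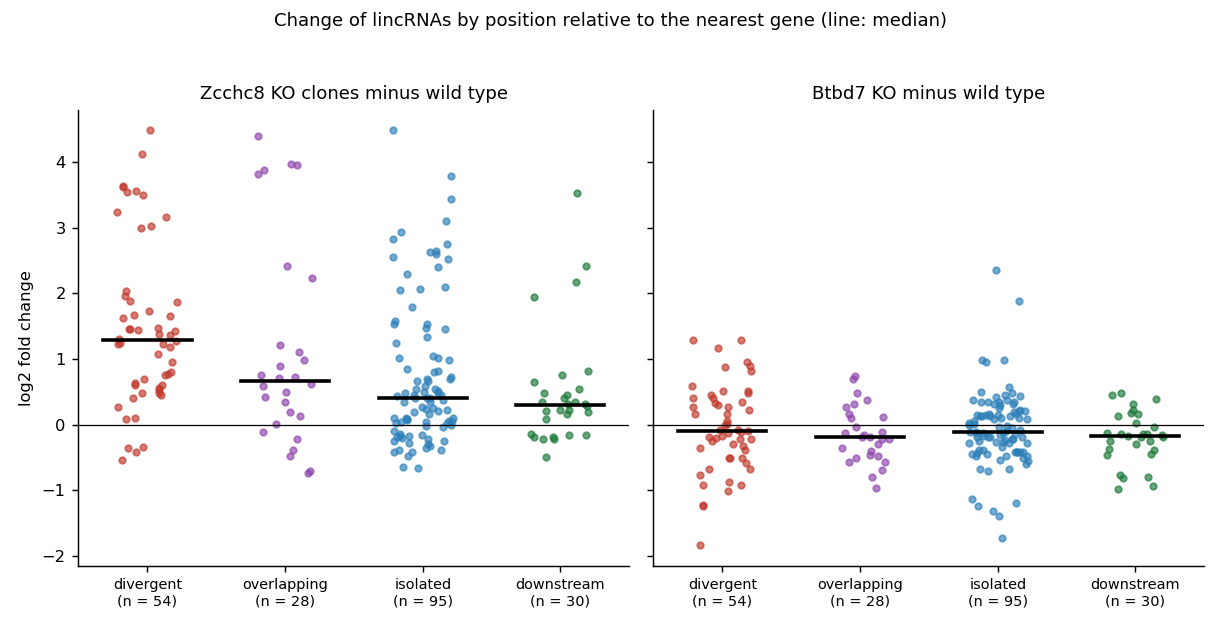
Log2 fold change (y axis) of every lincRNA by position class (x axis), for the Zcchc8 KO clones minus wild type (left) and Btbd7 KO minus wild type (right); the line is the median. Divergent lincRNAs have the highest median in Zcchc8 KO, 1.29, and in Btbd7 KO the 4 medians lie between -0.19 and -0.09. The points include genes that entered the set through their Zcchc8 KO level. With a wild-type mean of at least 20 counts the divergent median in Zcchc8 KO is 0.88.

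Among lincRNAs with a known role, Lncpint rose most. Lncpint (Linc-Pint) is induced by p53 and is linked to Polycomb repression and growth control. Wild-type libraries held 19.1, 29.4, 23.1 and 22.3 CPM and Btbd7 KO libraries 31.1, 27.7, 29.2 and 21.9 CPM. Clone 1 held 74.1, 73.0, 95 and 78.2 CPM, clone 2 held 53.9, 56.5, 51.8 and 55.1 CPM, and clone 3 held 77.3, 83.0, 73.0 and 63.4 CPM. All 12 Zcchc8 KO libraries lay above all 8 controls, and clone 2 lay below the other clones. The log2 fold change was 1.54 (SE 0.1, adjusted p = 2.43e-11), with 1.77, 1.21 and 1.65 in clones 1, 2 and 3, and the clones differed (adjusted p = 0.00113).

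The X-inactivation centre holds Jpx and Ftx, both known as activators of Xist, which overlap on opposite strands over 4790 bases. Jpx held 13.8, 12.3, 14.1 and 13.4 CPM in wild type and 13.3 to 21.7 CPM in Zcchc8 KO, and rose by 0.41 (SE 0.12, adjusted p = 0.0103). Only the clone 3 contrast passed on its own (0.58, adjusted p = 0.00433), and the lowest libraries of clones 1 and 2, at 14.1 and 13.3 CPM, lay within the wild-type range. Ftx held 81.6, 73.8, 60.8 and 74.1 CPM in wild type, 57.3 to 64.4 CPM in Btbd7 KO and 52.7 to 68.7 CPM in Zcchc8 KO. It fell by 0.30 (SE 0.07, adjusted p = 0.000781) in the clones and by 0.25 (adjusted p = 0.0355) in Btbd7 KO, and wild-type replicate 3 lay among the knockouts.

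Of the lincRNAs near growth genes, Pvt1, the neighbour of Myc, was the 1 lincRNA lower in each clone. It held 17.8, 20.9, 21.8 and 19.7 CPM in wild type and 19.3, 20, 19.6 and 15.1 CPM in Btbd7 KO. Clone 1 held 15.9, 16.7, 14.2 and 16.2 CPM, clone 2 18.4, 14, 14.2 and 12.7 CPM, and clone 3 13.4, 12.2, 12.1 and 14 CPM. A single library of clone 2 overlapped wild type. Pvt1 fell by 0.48 (SE 0.1, adjusted p = 0.000544). With cell lines as replicates Pvt1 was not called (-0.45, adjusted p = 0.127). Lockd, which starts 3579 bases past the cell cycle inhibitor gene Cdkn1b, rose by 0.41 (SE 0.11, adjusted p = 0.00633) from 15.8 to 27.2 CPM in wild type to 22.9 to 35.4 CPM, with overlap, while Cdkn1b had a log2 fold change of -0.01. Mir17hg, the host of the miR-17-92 cluster, had a log2 fold change of 0.08 (adjusted p = 0.699); its wild-type replicate 1 held 40.7 CPM and the others 19.5 to 21.4 CPM. Without that replicate Mir17hg passed the test at 0.42 (adjusted p = 0.000385). Lncenc1, known from embryonic stem cells, had a log2 fold change of -0.66 (adjusted p = 0.105), and Epb41l4aos one of 0.59 (adjusted p = 0.0492), a call that ended in many of the alternatives (without wild-type replicate 1, 0.49, adjusted p = 0.0895).

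Norad and Cyrano are conserved lincRNAs whose binding partners are known. 2900097C17Rik (Norad), which binds Pumilio proteins, held 93.5 to 113 CPM in wild type, 88.4 to 98.9 CPM in Btbd7 KO and 87.9 to 124 CPM in Zcchc8 KO, and its log2 fold change was -0.02 (SE 0.06, adjusted p = 0.783), or 0.06 without TMM factors and 0.01 with DESeq2. All groups overlapped. 1700020I14Rik (Cyrano), which triggers decay of the microRNA miR-7, held 238, 189, 201 and 225 CPM in wild type and 189, 188, 200 and 196 CPM in Btbd7 KO. It held 368, 349, 398 and 367 CPM in clone 1, 230, 248, 217 and 249 CPM in clone 2, and 281, 270, 309 and 292 CPM in clone 3. Clones 1 and 3 lay above every control and clone 2 overlapped wild type. Its log2 fold changes were 0.80 (SE 0.07, adjusted p = 1.56e-09), 0.15 (SE 0.07, adjusted p = 0.102) and 0.43 (SE 0.07, adjusted p = 2.25e-05), and the clones differed (adjusted p = 1.54e-07).

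**Figure D4:**
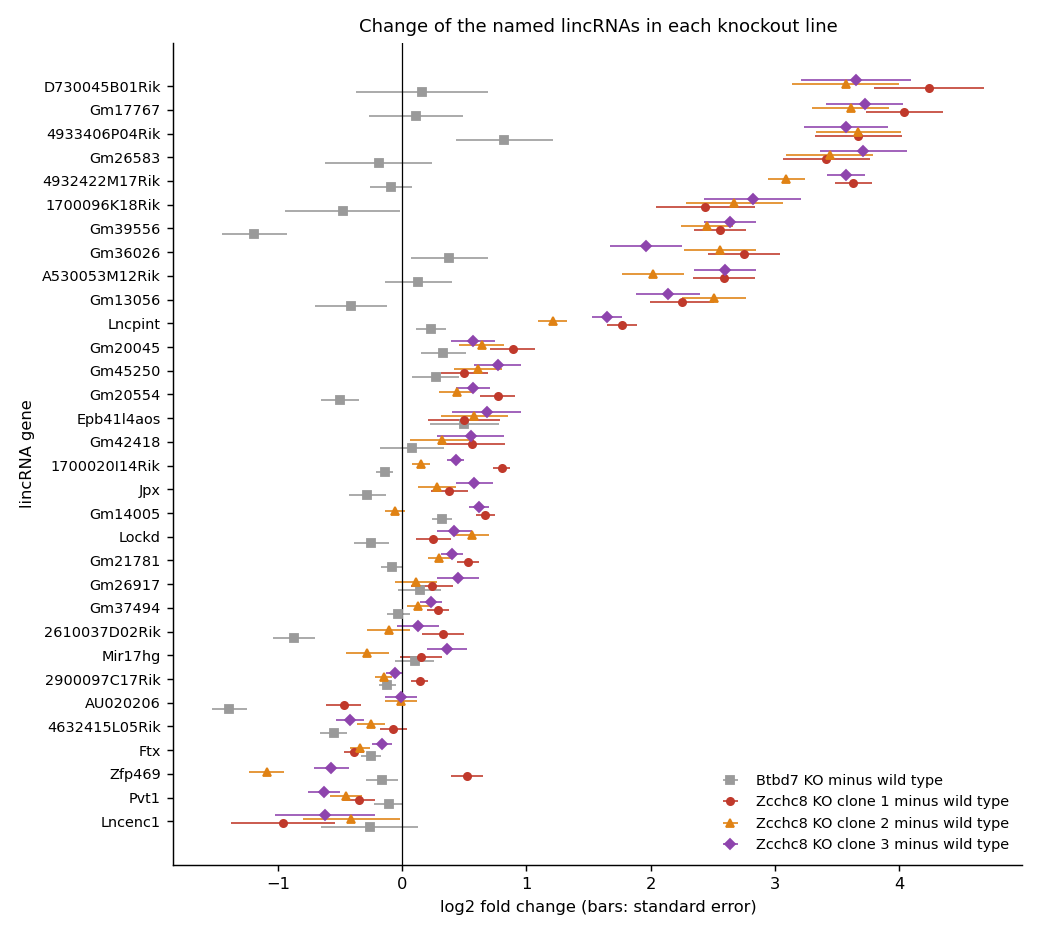
Log2 fold change minus wild type (x axis; bars, standard error) of the lincRNAs named by the rules, in Btbd7 KO and each Zcchc8 KO clone. In the uppermost 11 genes (D730045B01Rik to Lncpint) all 3 clones lie above 1; near the lower end Zfp469 lies above 0 in clone 1 and below 0 in clones 2 and 3.

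The lowest steady rises, among genes called in each clone, beside the fall of Pvt1, were in Gm21781 (0.41, SE 0.08), Gm20554 (0.60, SE 0.12), Gm45250 (0.62, SE 0.16) and Gm20045 (0.70, SE 0.15). Gm21781 went from 27.1, 31.6, 31.2 and 34.2 CPM in wild type to 35.8 to 51.8 CPM in Zcchc8 KO with no overlap. Gm20554, which faces the homeobox gene Irx2 at 256 bases, went from 12.1 to 17.8 CPM in wild type to 17.6 to 27.3 CPM, with a small overlap, and was lower in Btbd7 KO (-0.50, adjusted p = 0.0209). Gm45250 and Gm20045 did not overlap wild type, whose highest libraries were at 9.27 and 9.14 CPM, with lowest Zcchc8 KO libraries at 9.81 and 10.0 CPM. 4632404H12Rik beside Ube2q1, described after its values were seen, rose in Zcchc8 KO (1.08, SE 0.14, adjusted p = 9.67e-07) and in Btbd7 KO it was lower (-0.68, adjusted p = 0.00621).

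The 10 lincRNAs that were lower all changed by less than 1 on the log2 scale, and those no rule named were added after their values were seen. They were Pvt1, Ftx, Zfp469, 4632415L05Rik, 3110039M20Rik, 6030443J06Rik, Gm44053, E430024I08Rik, D930016D06Rik and Mirt1. 3110039M20Rik had -0.74 (adjusted p = 0.00798), but its wild-type replicate 1 held 59.0 CPM and the other 3 held 14.5, 19.1 and 22.2 CPM. Without that library 3110039M20Rik had a log2 fold change of -0.09 (adjusted p = 0.591). Leaving it out also ended the calls of Gm44053 (-0.42, adjusted p = 0.197), E430024I08Rik (-0.16, adjusted p = 0.165) and D930016D06Rik (-0.13, adjusted p = 0.216). 6030443J06Rik fell by 0.71 (adjusted p = 0.00562), Gm44053 by 0.64 (adjusted p = 0.0376), E430024I08Rik by 0.32 (adjusted p = 0.011) and D930016D06Rik by 0.22 (adjusted p = 0.0329). E430024I08Rik was lower in Btbd7 KO too (-0.47, adjusted p = 0.0078). Mirt1 fell by 0.41 (adjusted p = 0.00321), with 39.0 to 63.6 CPM in wild type, 38.8 to 50.6 CPM in clone 1, 20.8 to 31.2 CPM in clone 2 and 43.8 to 60.1 CPM in clone 3. Clone 2 alone was called (-0.89, adjusted p = 1.2e-05), with -0.26 (adjusted p = 0.137) in clone 1 and -0.08 (adjusted p = 0.699) in clone 3. Mirt1 was higher in Btbd7 KO (0.58, adjusted p = 0.00251). The calls of 4632415L05Rik, Gm44053 and D930016D06Rik also ended when any of several other libraries was left out, and that of E430024I08Rik ended without wild-type replicate 4 (adjusted p = 0.0526).

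Clones differed in 36 of the 207 lincRNAs, beside 28.5% of all genes. Among the 106 that rose, 17 differed between clones, and the rise was largest in clone 1 for 58, in clone 2 for 20 and in clone 3 for 28. The median log2 fold changes of the 106 were 1.60, 1.5 and 1.45 in clones 1, 2 and 3. Zfp469, annotated here as a lincRNA of 1 exon despite its zinc-finger name, differed most among the called lincRNAs (adjusted p = 3.61e-09). It held 51.7, 47.4, 46.3 and 35.7 CPM in wild type, 71.0, 63.9, 63.7 and 61.4 CPM in clone 1, 15.6, 17.5, 26.6 and 24.2 CPM in clone 2, and 33.7, 30.3, 24.1 and 32.7 CPM in clone 3. Clone 1 lay above wild type (0.52, adjusted p = 0.00319) and clones 2 and 3 below it (-1.09, adjusted p = 1.08e-06, and -0.57, adjusted p = 0.00215), so its mean of -0.38 stands for no single clone. Gm44275, named after its values were seen because the mean of the clones was not called (-0.22, adjusted p = 0.167), had a smaller adjusted p between clones (1.13e-10), with log2 fold changes of 0.21, 0.76 and -1.61 in clones 1, 2 and 3. Gm14005 rose in clones 1 and 3 (0.67 and 0.62) and not in clone 2 (-0.06, adjusted p = 0.644), and rose in Btbd7 KO as well (0.32, adjusted p = 0.00657).

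In Btbd7 KO the firmest lincRNA change was in AU020206. It held 31.4, 34.0, 28.0 and 33.7 CPM in wild type and 13.6, 12, 13.2 and 9.88 CPM in Btbd7 KO, with no overlap (log2 fold change -1.39, SE 0.14, adjusted p = 1.05e-07). In Zcchc8 KO it held 18.7 to 34.9 CPM, and only clone 1 was lower (-0.47, adjusted p = 0.00832). 2610037D02Rik was lower by -0.87 (adjusted p = 0.000883) and 4632415L05Rik by -0.55 (adjusted p = 0.00112). Gm39556 moved apart in the knockouts: it held 2.54 to 5.28 CPM in wild type, 0.507 to 2.36 CPM in Btbd7 KO (-1.19, adjusted p = 0.00202) and 18.6 to 26.2 CPM in Zcchc8 KO.

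The genes Gm26917 and Gm42418, held 91.4% of all counts in the 207 lincRNAs. Both lie next to each other on chromosome 17 at a locus known to match ribosomal RNA, and how much ribosomal RNA was left in each library was not tested. Gm26917 held 10500 to 28300 CPM in wild type and 18900 to 31200 CPM in Zcchc8 KO (log2 fold change 0.26, SE 0.14, adjusted p = 0.151), and Gm42418 held 549 to 2380 CPM and 1230 to 2710 CPM (0.48, SE 0.22, adjusted p = 0.0974). Wild-type replicate 1 was the lowest library for each. Without wild-type replicate 2 both passed the test, Gm26917 at 0.45 (adjusted p = 0.013) and Gm42418 at 0.86 (adjusted p = 0.00215), and without the filter on low counts both passed as well (adjusted p = 1.6e-09 and 7.79e-21). Gm42418 also passed with the replicate block (0.56, adjusted p = 0.0492) and with cell lines as replicates (0.44, adjusted p = 0.0274). The other lincRNAs together took 1.95 ± 0.0907 counts per 1000 counts in wild type, 1.85 ± 0.0346 in Btbd7 KO, 3.02 ± 0.069 in clone 1, 2.58 ± 0.0258 in clone 2 and 2.81 ± 0.0739 in clone 3 (mean ± SD, n = 4). The lowest Zcchc8 KO library (2.55) lay above the highest control (2.06), which is a description, since the level chose the genes.

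Per length of the longest transcript, wild-type levels spanned a wide range. Gm26917 stood at 6240 CPM per kb and Gm42418 at 765. AL805899.1 followed among the lincRNAs named here at 37.6, Gm14005 at 33.7, 3110039M20Rik at 33.1, 1700020I14Rik at 25.7, E430024I08Rik at 23.1, Wincr1 at 21.8, 2900097C17Rik at 20.8, Ftx at 17, Mirt1 at 15.6, Zfp469 at 14.7 and Lncpint at 14 CPM per kb. Genes with large rises stood lower, with 4932422M17Rik at 1.27, 4933406P04Rik at 0.674, D730045B01Rik at 0.364 and Gm26583 at 0.182 CPM per kb. Of these, 4933406P04Rik, D730045B01Rik and Gm26583 entered the set through their Zcchc8 KO level, so a low wild-type level follows from that choice. The wild-type level is also the base of each log2 fold change. Of all lincRNAs with a mean over 200 counts 16 of 38 were higher and 8 lower, of those at 50 to 200 counts 42 of 75 were higher and 1 lower, and of those at 20 to 50 counts 48 of 94 were higher and 1 lower. This mean includes the Zcchc8 KO libraries and chose the genes. With a wild-type mean of at least 20 counts, 16 of 38, 38 of 71 and 15 of 59 in these bins were higher.

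Gene structure varied with the change as well, as a description. Of lincRNAs with 3 or more exons 45 of 107 were higher and 7 lower, of those with 2 exons 34 of 52 were higher, and of those with 1 exon 27 of 48 were higher and 3 lower. Among the 52 shortest genes 34 were higher and among the 52 longest 21. In 4 bins of rising GC content of the longest transcript, 17 of 52, 23 of 52, 31 of 51 and 35 of 52 were higher. With a wild-type mean of at least 20 counts the shares were lower: 33 of 93 with 3 or more exons, 17 of 35 with 2 and 19 of 40 with 1. At that level 24 of 42 of the shortest and 13 of 44 of the longest genes were higher, and 13 of 48, 16 of 44, 19 of 39 and 21 of 37 in the bins of rising GC content. Class, length and GC content may go together in these genes, which was not examined, and their separate parts were not tested. Of 8 lincRNAs that hold a microRNA gene, 1 was higher (4833445I07Rik, which holds Mir191 and Mir425, 2.04, adjusted p = 0.00406) and 2 were lower (Ftx and 6030443J06Rik). 4833445I07Rik had 1.97 CPM in wild-type replicate 2 and 0.0748 to 0.235 CPM in the others, and without that library its log2 fold change was 3.86. Over all left-out libraries it ranged from 1.71 to 3.86. The wild-type mean of 4833445I07Rik was under 20 counts, so it entered the set through its Zcchc8 KO level. The let-7 host 6720427I07Rik (0.06, adjusted p = 0.617) and the Mir31 host AL805899.1 (-0.18, adjusted p = 0.0888) did not pass the test. Of 3 lincRNAs that hold a small nucleolar RNA gene, 2900076A07Rik did not pass (0.21, adjusted p = 0.599), and the call of Epb41l4aos (0.59) ended under many alternatives. 2700038G22Rik, with Snord93, rose by 0.34 (adjusted p = 0.0253), with 0.67, 0.09 and 0.27 in clones 1, 2 and 3. Its call ended without wild-type replicate 2 (adjusted p = 0.0779), replicate 3 (0.0751) or replicate 4 (0.104).

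The 3′ ends are shown because PAXT is known for RNAs that carry a poly(A) tail and NEXT for RNAs without one. A signal near an annotated end does not show that the RNA carries a tail. Below are the last 50 bases of an annotated GENCODE transcript of 4 lincRNAs, the first 3 raised and the last not; capitals mark the last AATAAA, the commonest poly(A) signal.
4932422M17Rik: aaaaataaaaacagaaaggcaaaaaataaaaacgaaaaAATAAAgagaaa
4933406P04Rik: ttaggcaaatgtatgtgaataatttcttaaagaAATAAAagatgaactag
Lncpint: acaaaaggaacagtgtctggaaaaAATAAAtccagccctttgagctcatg
2900097C17Rik: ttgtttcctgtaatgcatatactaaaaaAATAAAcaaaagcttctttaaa
The signal starts 12, 17, 26 and 22 bases before the end in these transcripts. D730045B01Rik and Gm17767, which also rose, had no AATAAA in the last 50 bases of any annotated transcript.

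On the sense strand, AATAAA was in the last 50 bases of the longest transcript in 44.9% of the 207 lincRNAs, 31.4% of all 5617 lincRNA genes and 30.4% of all 55450 annotated genes. Counting any transcript of a gene, 113 lincRNAs had the signal and 63 of them were higher; 94 had none there and 43 of them were higher. The medians were 0.51 and 0.57. With a wild-type mean of at least 20 counts, 47 of 96 with the signal (49.0%) and 22 of 72 without it (30.6%) were higher, with medians of 0.42 and 0.37. The difference was not tested. Annotated ends need not be those used in these cells.

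A separate table counted reads in the promoter upstream (PROMPT) region of each gene, in 19 libraries without wild-type replicate 1. The regions were scaled with the gene table's library sizes. How far a region reaches and on which strand it was counted are not given in the sources used here. Of the regions tested, which belong to 172 lincRNAs, 90 rose and 6 fell in Zcchc8 KO, beside 39.2% and 3.85% of all 17617 regions tested. Scaled within the PROMPT table, 63 were higher and 38 lower, of 169 tested, and the share of all regions under that scaling is not given here. In Btbd7 KO 1 was higher and 4 were lower, beside 1.23% and 1.75%. The median log2 fold change was 0.59, and 0.43 over all regions. Isolated lincRNAs had 48 of 69 regions higher and a median of 1.71, while 20 of 53 regions of divergent lincRNAs were higher with a median of 0.18. Upstream of a divergent lincRNA lies its coding partner, and reads of the partner and of the region cannot be told apart.

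Gene and region did not always move together. Of 88 raised lincRNAs with a tested region, the region was higher in 57, neither in 29 and lower in 2. In another 31 the region was higher where the gene passed in neither direction, and in 2 where the gene was lower. At Wincr1, a Wnt-linked lincRNA, both rose: the region held 2.62 to 6.16 CPM in wild type, 3.92 to 5.07 CPM in Btbd7 KO and 45.5 to 71.9 CPM in Zcchc8 KO (log2 fold change 3.6, SE 0.14, adjusted p = 2.25e-31), and the gene had a log2 fold change of 0.49 (adjusted p = 0.00554). The region of Lockd rose by 2.95 (adjusted p = 2.21e-25), from 2.62 to 3.36 CPM in wild type to 18.4 to 27.2 CPM. The region of Ftx rose by 3.32 (SE 0.35, adjusted p = 1.97e-12), from 0.299 to 1.11 CPM in wild type to 4.77 to 8.15 CPM, although the gene was lower. For 1700020I14Rik it rose by 2.64 (adjusted p = 1.73e-06). Gm5860 rose in both, by 2.05 in the gene (adjusted p = 5.92e-08) and by 4.33 in the region (adjusted p = 1.25e-11). Over the wild-type libraries the region of 1700020I14Rik held 18 counts in all and that of Gm5860 held 9. The size of both region rises thus rests on few wild-type reads. At 4933406P04Rik the region held 13.5 to 16.7 CPM in wild type and 9.87 to 15.8 CPM in Zcchc8 KO and did not pass (-0.13, adjusted p = 0.432), whereas the gene rose.

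**Figure D5:**
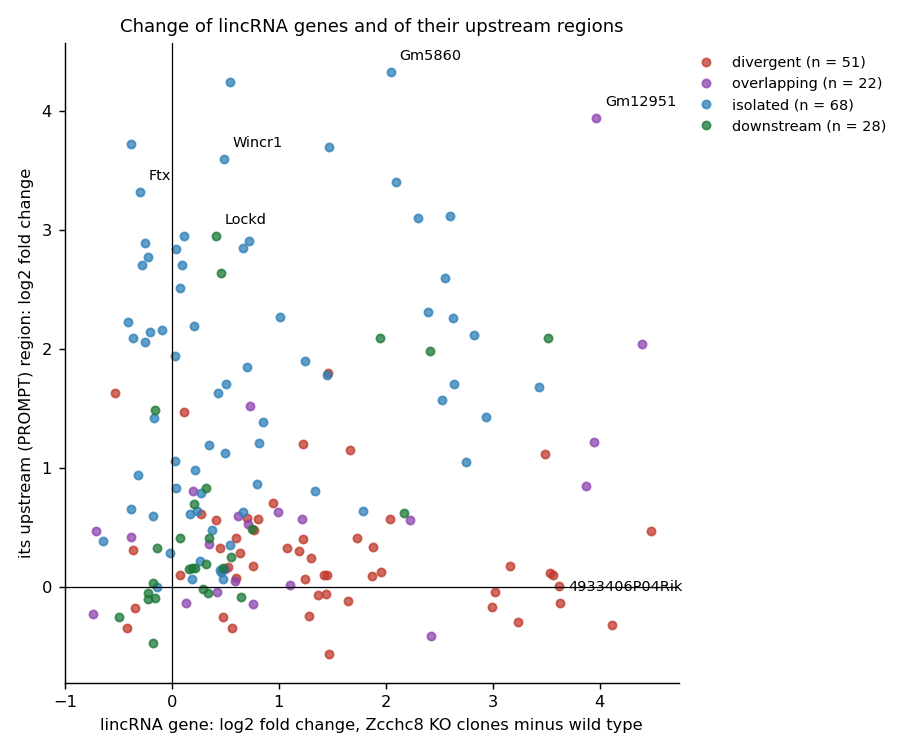
Log2 fold change of the lincRNA gene (x axis) and of its upstream region (y axis), Zcchc8 KO clones minus wild type, for the 169 tested regions with more than 3 counts over the wild-type libraries, coloured by position class. Isolated lincRNAs spread upward, as Wincr1 at 3.6 and Ftx at 3.32, while divergent ones such as 4933406P04Rik spread to the right near 0.

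A list drawn up for nuclear RNA decay held 28 gene symbols, not all of them parts of NEXT, PAXT, the exosome or the cap-binding complex. Of these 27 were tested, 1 was higher and 11, Zcchc8 included, were lower, with a median of -0.13. Over all genes tested 16.2% were higher and 19.9% lower. Mtrex fell by 0.27 (adjusted p = 2.89e-05), Rbm7 by 0.20 (adjusted p = 0.0179) and the exosome nuclease gene Dis3 by 0.31 (adjusted p = 3.64e-05), and the cap-binding adaptor gene Srrt rose by 0.49 (adjusted p = 7.8e-09).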

How the data were processed

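Total RNA (TRIzol, then columns) of 20 libraries was prepared with the Illumina TruSeq Stranded Total RNA kit, per the labels' protocols. FastQC and STAR 2.7.3a are named in the submitters' processing notes. The counter, its strand setting, the genome build and the annotation are not given in the sources used here. The authors deposited raw read counts per gene, both for 20 libraries and for 19 without wild-type replicate 1. They also deposited counts per PROMPT region (19 libraries, without wild-type replicate 1). The gene results here use the counts of all 20 libraries.

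From these, CPM values and tests were computed with R 4.3.3, edgeR 4.0.16 (TMM factors from all genes, filterByExpr by group, quasi-likelihood test, Benjamini-Hochberg adjustment over all genes tested), Python 3.11.15 and pandas 2.3.3. All 5 groups shared one fit, and a call is an adjusted p under 0.05. The PROMPT table was scaled with the library sizes and factors of the gene table. Every standard error was derived from the fold change and the F statistic. Scripts were tested on simulated data.

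Gene types and positions came from GENCODE M21 (GRCm38) and promoter sequences from RefSeq (GRCm38.p6), matched by symbol. The 207 lincRNAs and all lists were chosen with earlier results of these data known. Named by rule were listed lincRNAs, then, among those called in each clone with a mean of at least 50 counts, the 10 largest and 5 lowest changes, then the 5 highest levels, the 3 smallest adjusted p between clones among lincRNAs called for the mean and the 3 smallest in Btbd7 KO, and 3 on either side of the level limit. Others were named after their values were seen. Alternatives were DESeq2 1.42.0, other scalings and filters, a replicate block, cell lines as replicates, other level limits and leaving out each library. Totals per library limit the precision of low genes, and counting noise alone did not account for the spread between libraries of a group (chi-square per degree of freedom 2.85 to 73.6).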

Additional observations from a re-analysis of the deposited data

Results flagged for a closer look

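In groups of 4 libraries, a single library was marked where its gap to the others took up most of the group's range, a rule that chance meets now and then, so that some of the cases among the many groups tested are to be expected from chance. Among wild-type libraries, replicate 1 held 40.7 CPM of Mir17hg (others 19.5 to 21.4), 21.5 CPM of 2610037D02Rik (others 13 to 14.4) and 8.0 CPM of Wincr1 (others 14.6 to 15.7), and replicate 2 held 1.97 CPM of 4833445I07Rik (others 0.0748 to 0.235). Among Btbd7 KO libraries, replicate 4 held 15.1 CPM of Pvt1 (others 19.3 to 20), replicate 1 held 0.241 CPM of 4930517E14Rik (others 0) and replicate 3 held 0.744 CPM of Gm12951 (others 0.121 to 0.169).

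In clone 1, replicate 4 held 61.6 CPM of Ftx (others 52.9 to 54.1), replicate 2 held 50.6 CPM of Mirt1 (others 38.8 to 40.1) and replicate 3 held 16.8 CPM of Wincr1 (others 18.8 to 19.2). In clone 2, replicate 3 held 7.99 CPM of A530053M12Rik (others 8.48 to 8.57) and 7.64 CPM of 2010320M18Rik (others 5.8 to 6.06). Replicate 4 held 10.7 CPM of 2610037D02Rik (others 15.6 to 16). Replicate 1 of that clone held 3.43 CPM of Gm11335 (others 6.70 to 7.24) and 4.25 CPM of 4930517E14Rik (others 3.28 to 3.42). In clone 3, replicate 3 held 32.4 CPM of Lockd (others 29.0 to 29.5), replicate 2 held 60.1 CPM of Mirt1 (others 43.8 to 44.5) and replicate 4 held 3.95 CPM of 4933433G15Rik (others 6.88 to 7.28).

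The test of the difference between the 3 clones (edgeR, adjusted over all genes) passed for 15 of the lincRNAs named. The adjusted p was 3.61e-09 for Zfp469, 1.54e-07 for 1700020I14Rik, 1.74e-07 for Gm14005, 0.000123 for Mirt1, 0.000523 for A430106G13Rik and 0.000668 for AI480526. It was 0.00113 for Lncpint, 0.00203 for E430024I08Rik, 0.0021 for 4932422M17Rik, 0.00564 for 2900097C17Rik and 0.00779 for 2700038G22Rik. It was 0.0133 for Mir17hg, 0.0139 for Dubr, 0.0152 for AU020206 and 0.031 for 4632404H12Rik. A430106G13Rik, which holds Mir181b-1, was lower in clone 1 (-1.05, adjusted p = 0.0098) and had a log2 fold change of 0.63 in clone 3 (adjusted p = 0.0893). Dubr was higher in clones 2 and 3 (0.40 and 0.33), with 0.09 in clone 1 (adjusted p = 0.466).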

How the results depend on the processing

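Of 1876 values of named lincRNAs under alternatives, 1767 kept their direction and side of the threshold, 90 lost a call, 10 gained one and 9 changed sign. Changes of sign were 2900097C17Rik at 0.06 without TMM factors, 0.01 with DESeq2, 0.02 with cell lines as replicates and from -0.04 to 0.03 over the left-out libraries, Mir17hg at -0.03 to 0.42 and 2900076A07Rik at -0.04 to 0.44 over them, and, with cell lines as replicates, AU020206 at 0.36 and A430106G13Rik at 0.18. Mir17hg was below 0 without wild-type replicate 2 (-0.03) and replicate 4 (-0.01).

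Without TMM factors 6 lincRNAs were lower for the clones and 5 for clone 1. With cell lines as replicates, a setting with fewer samples that also puts Btbd7 KO among the controls, 69 were higher and 0 lower. Over all genes 5.34% were higher and 0.951% lower in that setting. There 28 of the 52 named lincRNAs otherwise called stayed called and 24 did not. Among those that did not were Pvt1 (adjusted p = 0.127), Jpx (0.124), Lockd (0.112), Ftx (0.395), 1700020I14Rik (0.139) and Gm21781 (0.098). A further limit of 1 on the size of the log2 fold change left 0 lower for the clones, 1, 4 and 2 for clones 1, 2 and 3, 3 higher and 3 lower in Btbd7 KO, and 1 lower against Btbd7 KO; requiring a call in each clone left 1 lower. Fitting only the groups compared left 1 lower in clone 1, 5 in clone 2, 3 higher and 4 lower in Btbd7 KO, and gave 64 differing between clones. Choosing members by their wild-type mean gave 69 higher of 182, and 64, 56 and 61 in clones 1, 2 and 3. By the mean of wild type and Btbd7 KO it gave 66 of 172, and 62, 55 and 59. By a mean of at least 50 counts it gave 58 of 113, and 52, 50 and 52, with 4 higher in Btbd7 KO and 63 higher against it. Scaling within the PROMPT table gave 63 higher and 38 lower of 169 upstream regions, against 90 and 6. TMM factors after the filter, an alternative added after the data were seen, gave 106 higher.

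Leaving out 1 library gave 102 to 116 higher and 6 to 15 lower for the clones, 91 to 108 and 4 to 11 for clone 1, 84 to 103 and 8 to 11 for clone 2, and 86 to 106 and 7 to 11 for clone 3. It gave 6 to 10 higher and 9 to 18 lower in Btbd7 KO, 104 to 133 higher and 6 to 9 lower against Btbd7 KO, 27 to 55 between clones, and 85 to 92 higher and 4 to 8 lower upstream regions. The lower count was 6 without wild-type replicate 4, and for clone 1 it was 4 without that library and 6, 4, 6 and 5 without clone 1 replicates 1, 2, 3 and 4. The count between clones was 55 without wild-type replicate 1, and that library's omission gave 116 higher and 8 lower. Higher divergent lincRNAs ranged from 30 to 44 over all alternatives. The replicate block gave 107 higher, 104 of them shared. Same-numbered libraries had a median correlation of 0.001 (-0.068 to 0.1 over 40 pairs, 1 of them over 0.1). No pairing by number was seen in these correlations, which cannot tell whether same-numbered libraries were prepared together.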
